A study of Mus musculus with 12 samples.

Results

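Csf1, Csf2, Csf3, Il34, Kitl and Flt3l encode secreted or membrane-bound growth factors for cells of the myeloid lineage. They were taken from the deposited expression table by gene symbol, and all 6 were found among its 20606 genes. The table comes from bulk RNA sequencing of mouse lung fibroblasts in 12 libraries. MF and MyoF are the submitters' abbreviations for 2 purified fibroblast subgroups, matrix fibroblasts by the series title for MF. Each subgroup was taken from normal mice (N-MF and N-MyoF) and from mice with lung metastasis (M-MF and M-MyoF), with 3 libraries in each of the 4 groups. The study asked how the subgroups contribute to the outgrowth of disseminated tumour cells in the lung, and compared each subgroup between metastatic and normal lung. The sources used here give no strain, age, tumour cell line or sort, and no number of mice behind a library. Because no label states that libraries of a group came from separate animals, the p-values below measure the spread between libraries only, and that spread may be technical.

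Myeloid cells need growth factors from their surroundings to survive, divide and mature, and fibroblasts are a known source of several. CSF1 and IL-34 share the receptor CSF1R and maintain macrophages, GM-CSF (Csf2) is needed for the maturation of alveolar macrophages in the lung, and G-CSF (Csf3) drives the production and release of neutrophils. Stem cell factor (Kitl) acts through KIT on blood progenitors and mast cells, and FLT3 ligand (Flt3l) supports dendritic cells and early progenitors.

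The messenger RNAs of several of these factors carry AU-rich elements, runs of ATTTA in the 3′UTR at which proteins of the Zfp36 family bind and start decay. The richest stretches are printed because the factors differed widely in this feature, and because the genes for those decay proteins were measured in the same libraries. They were read from GENCODE transcripts of the GRCm38 build, run 5′ to 3′ on the transcript strand, and capitals mark each ATTTA.
Csf2: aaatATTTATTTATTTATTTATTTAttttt
Csf3: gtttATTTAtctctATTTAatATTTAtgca
Kitl: ttgtgacttgATTTATTTAtctggtagttt
Csf1: aaggtcATTTAaatatctATTTAaaaaata
The Csf2 stretch lies at chr11:54247324-54247353 on the minus strand and holds 5 overlapping ATTTA pentamers in 30 bases. A stretch of that length with at least 5 occurred in 0.261% of 21823 genes with a 3′UTR model. The Csf3 stretch, at chr11:98702988-98703017 on the plus strand, holds 3, which 2.47% of genes reached. The Kitl stretch at chr10:100097942-100097971 on the plus strand and the Csf1 stretch at chr3:107741102-107741131 on the minus strand hold 2 each, a count reached by 18.1% of genes. Over the whole 3′UTR, ATTTA occurred 9 times in 317 bases in Csf2, 6 times in 669 in Csf3, 14 times in 4435 in Kitl and 4 times in 2111 in Csf1. Il34 had 1 in 605 bases and Flt3l had 0 in 424. A match to these letters is a description of the sequence and not a measured binding site.

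The promoter of Csf1 is shown because this gene had the highest level of the 6 in N-MF, M-MF and N-MyoF. It is the RefSeq sequence (GRCm38.p6, chr3:107760420-107760719, minus strand) from 250 bases before the start site to 50 after it, and capitals mark a match to the NF-kappaB motif.
Csf1 promoter: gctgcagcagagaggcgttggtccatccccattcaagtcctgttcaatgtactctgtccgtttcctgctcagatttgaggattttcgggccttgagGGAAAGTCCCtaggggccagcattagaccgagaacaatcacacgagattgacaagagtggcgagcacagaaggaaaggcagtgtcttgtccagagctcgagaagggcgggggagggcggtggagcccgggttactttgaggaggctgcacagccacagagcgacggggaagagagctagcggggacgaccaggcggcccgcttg
The motif searched, on both strands, was GGG followed by any 2 bases and TTTCC. In Csf1 it was found on the opposite strand, read here as GGAAAGTCCC, with its first base at -154 from the start. It occurred in 1.62% of 27025 promoters of this length. Among Csf2, Kitl and Flt3l, the other members with a promoter in the table, Csf2 held a C/EBP motif (TTGCNNAA, found in 10.8% of promoters) as TTGCCCAA at -145, although the start used for Csf2 lies 232 bases from the nearest GENCODE start. The AP-1 motif TGANTCA and the CK-1 motif (GAGA, TTCC, any base and C in a row), found in 7.93% and 0.148% of promoters, had no match in these windows, and Kitl and Flt3l matched none of the motifs. Csf3 and Il34 are named only.

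Values are FPKM, fragments scaled for transcript length and for mapped fragments, so levels can be set side by side between genes, but the read depth is unknown. Sums of FPKM ranged over the libraries from 528176 to 618478, with 11466 to 12682 genes at 1 FPKM or more. Markers of the labelled cell types were present in every group. The summed FPKM of 6 fibroblast markers was 20950 to 21183 in N-MF, 15232 to 15352 in M-MF, 3467 to 3518 in N-MyoF and 1975 to 1994 in M-MyoF, and that of 6 myofibroblast markers was 447 to 463.9, 294 to 298, 4460 to 4569 and 2934 to 2989 in the same order. Matrix fibroblast markers (6 genes) summed to 4213 to 4339 in N-MF, 1015 to 1029 in M-MF and 273 to 656 in the MyoF libraries, sums carried by Inmt (3919 FPKM in N-MF). In N-MF against N-MyoF 3 of these 6 were higher and 3, Col13a1, Npnt and Itga8, were lower. Of all genes 24.5% were higher and 57.6% lower there, and the median log2 fold change was 0.17 for the list and -0.21 for all genes. The members of this list thus went both ways, and not every one sets MF apart. Markers of other cell types differed between groups too. The summed level of 11 neutrophil markers was 32.5 to 37.1 in N-MF, 255 to 264 in M-MF, 138 to 152 in N-MyoF and 13353 to 13699 in M-MyoF, with none at 0 throughout a group. Mesothelial markers (7 genes) summed to 16.9 to 18.3, 265 to 269, 136 to 140 and 261 to 270.02 in the same order, and 7 carcinoma epithelial markers to 35.8 to 39.1, 342 to 348, 169 to 174 and 806 to 829.7, with Krt14 at 0 in N-MF. Krt8 and Krt18 carried most of the latter rise. In M-MF 6 of the 7 rose and 1 fell, with a median log2 fold change of 1.07, where 46.3% of all genes rose and 31.8% fell. In M-MyoF 3 of the 7 rose, 2 fell and 2 did not pass, with a median of 0.04, where 49.1% rose and 31.6% fell. Epcam was at 1.91 FPKM in N-MF, 2.58 in M-MF, 5.96 in N-MyoF and 6.15 in M-MyoF. Over all libraries, endothelial markers summed to between 169.8 and 492, pericyte markers to between 80.95 and 442, type 2 alveolar epithelial markers to between 1346 and 4850.45, and T cell and innate lymphoid markers to between 3.18 and 44.1. The last range follows Gata3 (1.20 to 37.5 FPKM over the group means), and 4 of the 8 were too low to test. The mean of Cd3e was lower with metastasis in both subgroups. That of Cd3d was lower in MF (0.16 to 0.01 FPKM) and higher in MyoF (0.64 to 1.95 FPKM). In M-MF only 1 of the 4 tested genes passed as lower, where 31.8% of all genes did, so the MF differences of Cd3e and Cd3d did not both pass. In bulk libraries a change in the number of cells of a type and a change in RNA per cell cannot be told apart.

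Csf3, the gene for G-CSF, was below 1 FPKM in the normal libraries and among the most abundant of the 6 in the metastatic ones. It measured 0.40, 0.33 and 0.29 FPKM in the N-MF libraries, and 43.22, 41.94 and 42.39 FPKM in the M-MF libraries. In N-MyoF it measured 0.55, 0.51 and 0.46 FPKM, and in M-MyoF 62.08, 60.49 and 62.43 FPKM. No normal library reached 1 FPKM and no metastatic library fell below 41.94 FPKM, so the groups were far apart in both subgroups. The mean level was 125-fold higher in M-MF than in N-MF and 122-fold higher in M-MyoF than in N-MyoF, ratios that rest on normal levels near the resolution of the table. On the log2(FPKM + 1) scale, which understates the change of genes near 0, the rise was 5.02 ± 0.04 (SE) in MF (limma adjusted p = 2.4e-17) and 5.38 ± 0.04 in MyoF (limma adjusted p = 1.13e-17). Neutrophil markers rose in the same contrasts, 10 of 11 in M-MF with a median log2 fold change of 2.10 and 11 of 11 in M-MyoF with 5.54. Of all genes 46.3% rose in MF and 49.1% in MyoF, with medians of 0.08 and 0.11. In M-MF, where the neutrophil sum was at most 264 FPKM, Csf3 stood at 42.5 ± 0.65 (SD, n = 3), and in M-MyoF, where that sum was at least 13353, it stood at 61.7 ± 1.03. The mesothelial and carcinoma epithelial marker sums given above were also higher in the metastatic libraries of both subgroups. The part of RNA from neutrophils or from these other cell types in the Csf3 level was not tested.

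Csf1, the main growth factor of macrophages, was the most abundant of the 6 in every N-MF, M-MF and N-MyoF library. It measured 81.51, 77.51 and 80.02 FPKM in N-MF and 86.44, 85.57 and 86.98 FPKM in M-MF. In N-MyoF it measured 21.19, 20.84 and 19.80 FPKM, and in M-MyoF 39.65, 38.38 and 38.23 FPKM. No 2 groups overlapped, and every MF library lay above every MyoF library. In MyoF, Csf1 rose 1.88-fold in mean FPKM with metastasis (log2 fold change 0.88 ± 0.03, limma adjusted p = 9.6e-12). In MF the log2 fold change was 0.11 ± 0.03 (limma adjusted p = 0.00255), a difference whose direction depends on the scaling, since it was 0.0044 with libraries scaled to equal sums (limma adjusted p = 0.892), -0.020 with median-ratio scaling (limma adjusted p = 0.509) and -0.12 with quantile normalization (limma adjusted p = 0.00115). The median of all 13300 genes in that contrast was 0.08 as deposited, -0.025 with median-ratio scaling and -0.10 with quantile normalization, so Csf1 in MF lay within 0.1 of the median gene in all 3.

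Il34, the second ligand of CSF1R, was ordered the other way between subgroups. It measured 5.95, 5.27 and 5.31 FPKM in N-MF and 14.99, 14.75 and 13.33 FPKM in M-MF. It measured 16.77, 16.74 and 17.45 FPKM in N-MyoF and 21.82, 22.22 and 21.27 FPKM in M-MyoF. The 4 groups did not overlap, with N-MF lowest and M-MyoF highest. With metastasis Il34 rose 2.61-fold in mean FPKM in MF (log2 fold change 1.24 ± 0.05, limma adjusted p = 7.97e-11) and 1.28-fold in MyoF (0.34 ± 0.05, limma adjusted p = 2.74e-05). The MyoF value was 0.09 after quantile normalization and no longer passed (limma adjusted p = 0.0845).

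Within a library the ratio of Csf1 to Il34, the ligands of CSF1R, does not change when a library is multiplied by 1 factor. It ran from 13.7 to 15.1 in N-MF and from 5.77 to 6.53 in M-MF. In N-MyoF it ran from 1.13 to 1.26, and in M-MyoF from 1.73 to 1.82. Every metastatic MF library thus had a lower ratio than every normal one, and every metastatic MyoF library a higher one. The mean log2 ratio fell by 1.27 in MF and rose by 0.55 in MyoF. An exact two-sided permutation test gave p = 0.1 for each, the smallest that 3 libraries against 3 allow. The ratio was also higher in MF than in MyoF, by 3.58 log2 units in normal lung and 1.76 in metastatic lung, with the same exact permutation p of 0.1.

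Kitl, the gene for stem cell factor, was, like Il34, lowest in N-MF and highest in M-MyoF. It measured 5.67, 5.62 and 5.93 FPKM in N-MF and 15.73, 15.28 and 14.63 FPKM in M-MF. It measured 14.66, 14.68 and 14.64 FPKM in N-MyoF and 24.03, 24.81 and 23.69 FPKM in M-MyoF. M-MF and N-MyoF overlapped between these extremes. Kitl rose 2.65-fold in mean FPKM in MF (log2 fold change 1.27 ± 0.03, limma adjusted p = 1.32e-12) and 1.65-fold in MyoF (0.68 ± 0.03, limma adjusted p = 5.22e-10). All 119 alternative values of Kitl over the 5 comparisons kept their direction and their side of the threshold.

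Flt3l, whose product supports dendritic cells, was the factor that fell. It measured 28.73, 29.90 and 29.53 FPKM in N-MF and 12.17, 13.43 and 12.02 FPKM in M-MF. It measured 7.23, 7.32 and 7.64 FPKM in N-MyoF and 7.75, 7.63 and 8.69 FPKM in M-MyoF. Every N-MF library had more than double the level of any other library, whereas N-MyoF and M-MyoF overlapped. In MF the mean FPKM was 2.34-fold lower with metastasis (log2 fold change -1.17 ± 0.05, limma adjusted p = 1.88e-10). In MyoF the log2 fold change was 0.10 ± 0.05 (limma adjusted p = 0.0753). That value turned to -0.071 with equal sums, -0.040 with median-ratio scaling and -0.094 with quantile normalization. It passed without M-MF replicate 2 (limma adjusted p = 0.0485) or without M-MyoF replicate 2 (limma adjusted p = 0.0404).

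Csf2, the gene for GM-CSF, stayed at or below 1.30 FPKM in every library. It measured 1.07, 0.97 and 0.57 FPKM in N-MF and 1.06, 1.30 and 1.19 FPKM in M-MF. It measured 0.55, 0.48 and 0.42 FPKM in N-MyoF and 0.68, 0.65 and 0.38 FPKM in M-MyoF. The normal and metastatic libraries overlapped in both subgroups. The log2 fold change was 0.23 ± 0.10 in MF (limma adjusted p = 0.0548) and 0.08 ± 0.10 in MyoF (limma adjusted p = 0.498), the latter -0.19 after quantile normalization. With the replicate number as a block the MF difference passed (limma adjusted p = 0.0236), and it also passed without N-MF replicate 1 (0.31, limma adjusted p = 0.0214) and without M-MyoF replicate 3 (limma adjusted p = 0.0372). At these levels, given to 2 decimals, a difference of this size was past the threshold in some settings and not in others.

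**Figure D1:**
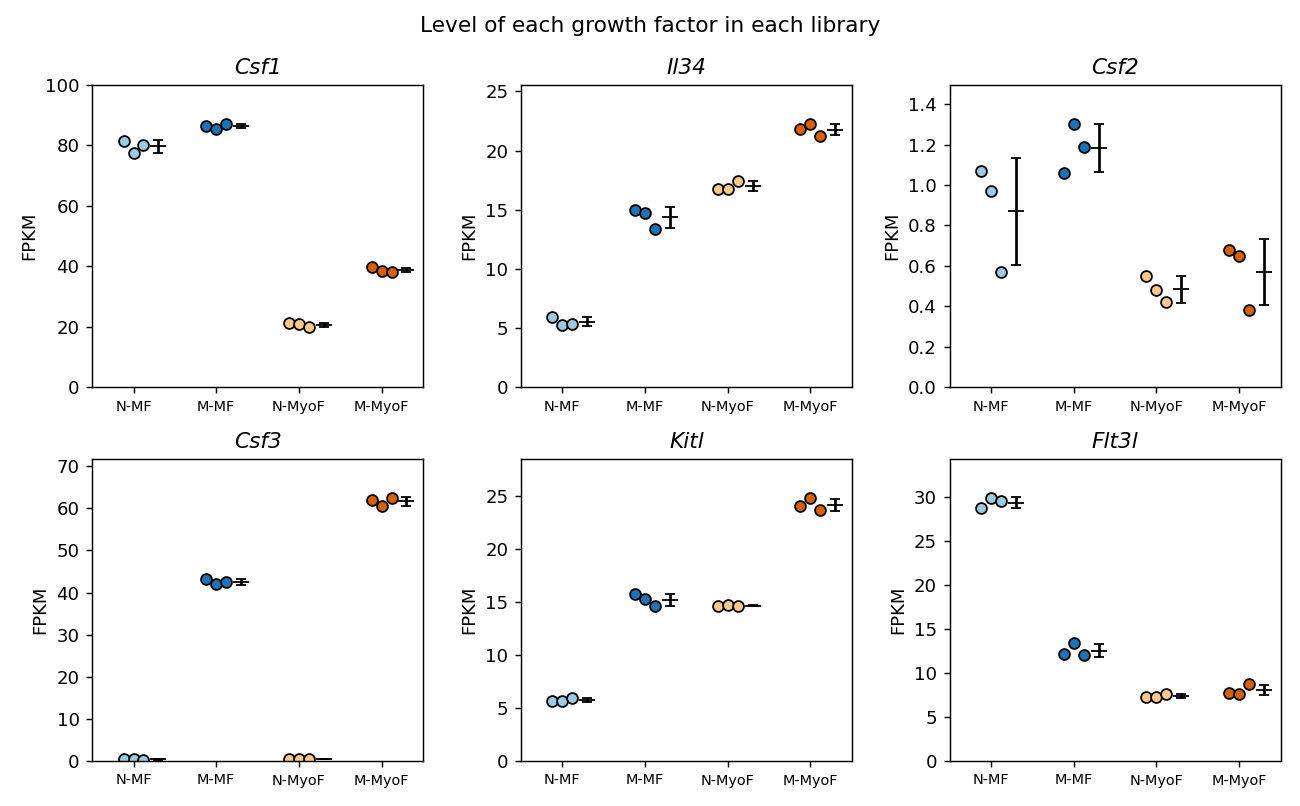
FPKM of each growth factor (vertical axes, linear from 0) in the 3 libraries of each of the 4 groups (horizontal axes). Points are libraries, and the bar beside them is the mean ± SD. Csf3 is below 1 FPKM in all normal libraries and above 41 FPKM in all metastatic ones, and Flt3l stands at 28.73 to 29.90 FPKM only in N-MF.

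Counted over the set, 4 of the 6 growth factors rose in M-MF against N-MF (Csf1, Csf3, Il34 and Kitl), 1 fell (Flt3l) and 1 did not pass (Csf2). At the threshold of 0.05, 78.1% of the 13300 tested genes passed in that comparison, 46.3% upwards and 31.8% downwards, so passing was common. The direction of Csf1 in that count depends on the scaling, as given above. In MF, 3 of the 6 rose at least 2-fold, as 9.32% of all genes did, and 1 of 6 fell at least 2-fold, as 2.54% did. The median log2 fold change of the 6 was 0.74, against 0.08 for all genes. In M-MyoF against N-MyoF, 4 rose (Csf1, Csf3, Il34 and Kitl), 0 fell and 2 did not pass (Csf2 and Flt3l), where 80.7% of all genes passed, 49.1% higher and 31.6% lower. On the log2(FPKM + 1) scale Csf3 alone rose at least 2-fold there, as 11.4% of genes did, while 0 of 6 fell by that much, as 3.24% did, and the median of the 6 was 0.51 against 0.11. All 6 members entered the test, Csf3 through its metastatic libraries and Csf2 through 4 MF libraries at or above 1 FPKM.

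The test of a difference in metastasis effect between the subgroups was passed by 5 of the 6 genes, Csf3 with the limit given below. Of all genes 64.4% passed it, 38.0% with a higher and 26.4% with a lower effect in MyoF. Values are the MyoF effect minus the MF effect on the log2(FPKM + 1) scale. Csf1 rose more in MyoF, by 0.77 ± 0.04 (limma adjusted p = 5.12e-09). Il34 and Kitl rose less in MyoF, with differences of -0.90 ± 0.07 (limma adjusted p = 1.96e-07) and -0.58 ± 0.05 (limma adjusted p = 2.89e-07). For Flt3l the difference was 1.27 ± 0.07 (limma adjusted p = 8.56e-09), since its fall was measured in MF. For Csf3 it was 0.36 ± 0.05 (limma adjusted p = 8.71e-05). The call was lost with a pseudocount of 0.1 (0.067, limma adjusted p = 0.625) and with median-ratio scaling (0.12, limma adjusted p = 0.068). All normal Csf3 values lay below the filter of 1 FPKM, so this value is not read as a difference between the subgroups. For Csf2 it was -0.15 ± 0.15 (limma adjusted p = 0.369).

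**Figure D2:**
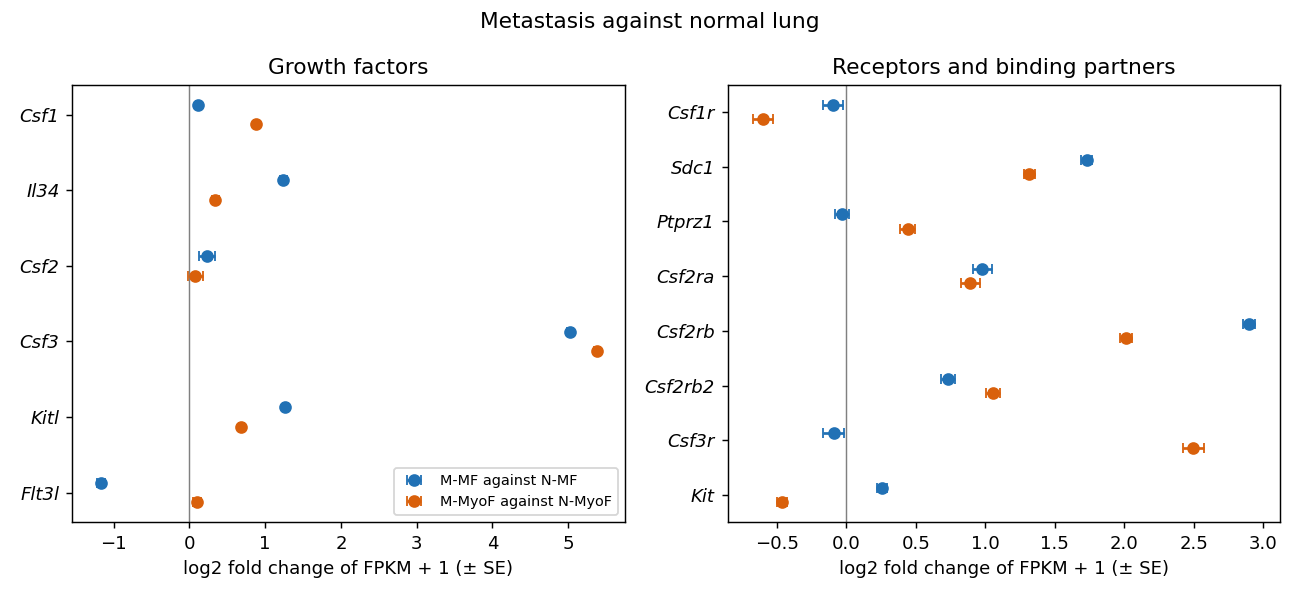
Log2 fold changes of FPKM + 1 (horizontal axis, with SE) for the 6 growth factors on the left and 8 tested receptors and binding partners on the right. Blue points are M-MF against N-MF and orange points M-MyoF against N-MyoF. Csf3 lies above 5 in both, Flt3l is at -1.17 in MF and 0.10 in MyoF, and Csf3r is at -0.09 in MF and 2.50 in MyoF.

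Csf1, Flt3l, Il34 and Kitl differed between the subgroups in both normal and metastatic lung. In normal lung 82.0% of genes passed (24.5% higher in MF and 57.6% lower). In metastatic lung 85.1% passed (19.1% higher and 66.0% lower). Csf1 and Flt3l were higher in MF, and Il34 and Kitl were higher in MyoF. In normal lung Csf1 was 3.87-fold and Flt3l 3.97-fold higher in N-MF than in N-MyoF in mean FPKM (log2 fold changes 1.90 and 1.86, limma adjusted p = 3.86e-15 and 1.3e-12). Il34 and Kitl had log2 fold changes of -1.47 and -1.22 (limma adjusted p = 1.12e-11 and 1.35e-12). In metastatic lung the same contrasts were nearer to 0, by the amounts tested above as the difference of effects, for these genes, at 1.14 for Csf1, 0.59 for Flt3l, -0.57 for Il34 and -0.64 for Kitl, each past the threshold (limma adjusted p = 8.69e-13 for Csf1, 1.76e-07 for Flt3l, 1.81e-07 for Il34 and 1.24e-09 for Kitl). Csf2 passed the filter only through MF libraries, so its contrasts are not read as differences between the subgroups. Its log2 fold change was 0.32 ± 0.10 in normal lung (limma adjusted p = 0.0108), a call lost without N-MF replicate 1 (0.25, limma adjusted p = 0.0545). In metastatic lung it was 0.48 (limma adjusted p = 0.000775). Csf3 was at -0.53 in metastatic lung (limma adjusted p = 3.56e-08). In normal lung all its values, 0.29 to 0.55 FPKM, lay below the filter of 1 FPKM that it passed through its metastatic libraries. Its log2 fold change there, -0.17, is therefore not read as a difference, and it was -0.044 with a pseudocount of 5, -0.084 with median-ratio scaling and 0.16 with quantile normalization.

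The 6 levels were also expressed as shares of their sum within each library, which removes any single factor per library. In N-MF, Csf1 made up 65.6% ± 0.67 and Flt3l 24.2% ± 0.86 (SD, n = 3) of a sum of 121.5 FPKM. In M-MF the sum was 172.1 FPKM, with Csf1 at 50.2% ± 0.74 and Csf3 at 24.7% ± 0.31, up from 0.28% ± 0.04. Flt3l held 7.28% ± 0.44 there. In N-MyoF the sum was 60.6 FPKM and was more evenly held, by Csf1 (34.0% ± 1.06), Il34 (28.0% ± 0.76), Kitl (24.2% ± 0.11) and Flt3l (12.2% ± 0.40). In M-MyoF the sum was 155.0 FPKM and Csf3 was the largest part at 39.8% ± 0.56, ahead of Csf1 at 25.0% ± 0.36, Kitl at 15.6% ± 0.43 and Il34 at 14.0% ± 0.34. Csf2 stayed below 1% in every library. These shares count transcripts per length and not protein.

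**Figure D3:**
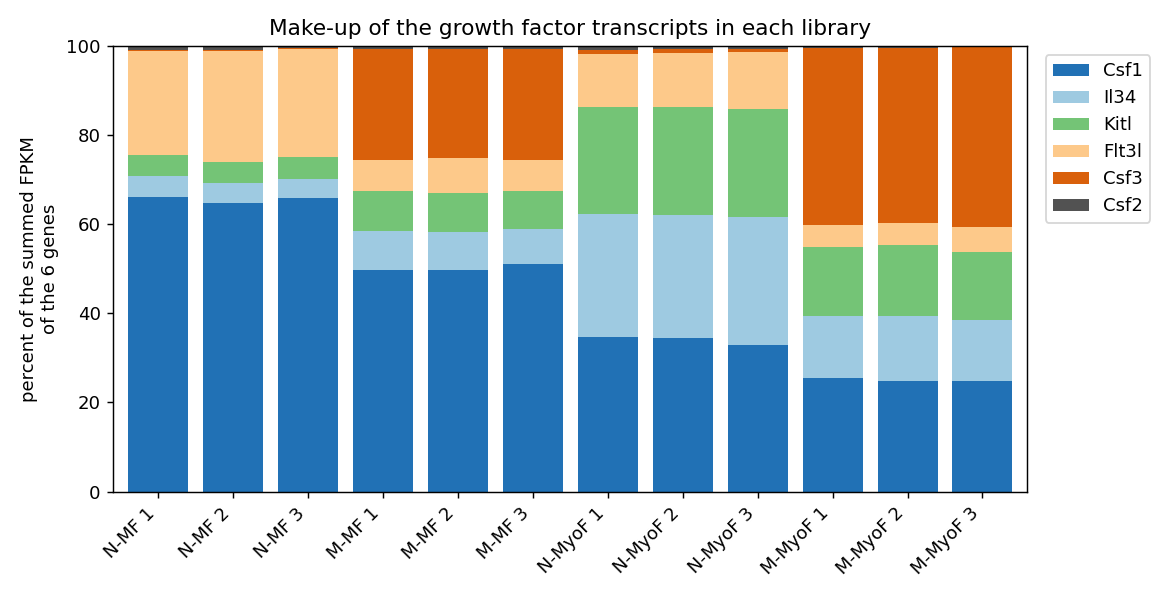
Percent of the summed FPKM of the 6 growth factors (vertical axis, 0 to 100) held by each gene in each of the 12 libraries (horizontal axis). Csf1 is the largest part in the N-MF, M-MF and N-MyoF libraries, and Csf3 in the M-MyoF libraries, at 39.8% on average.

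For the lists that follow, the shares over all genes are those given above, 46.3% higher and 31.8% lower in MF with a median of 0.08, and 49.1% and 31.6% in MyoF with a median of 0.11. Of 9 receptors and binding partners, 8 passed the expression filter. In M-MF 5 rose and 0 fell (1 with median-ratio scaling and 3 with quantile normalization), with 3 not passing, and the median was 0.49 against 0.08 for all genes. In M-MyoF 6 rose and 2 fell, with a median of 0.97 against 0.11. Flt3, the receptor of FLT3 ligand, was not tested and measured at most 0.45 FPKM in any library. Csf1r, the receptor of CSF1 and IL-34 and a macrophage marker, measured 1.44, 1.58 and 1.46 FPKM in N-MF and 1.12, 1.46 and 1.44 FPKM in M-MF, which overlap. It measured 5.98, 4.77 and 5.11 FPKM in N-MyoF and 3.00, 3.16 and 3.24 FPKM in M-MyoF, lower in every metastatic library, and it fell by 0.60 on the log2 scale (limma adjusted p = 6.65e-06). The 13 macrophage and monocyte markers summed to 308 to 324 FPKM in N-MF, 309 to 333 in M-MF, 1023 to 1070 in N-MyoF and 1005 to 1049 in M-MyoF, with Marco at 0 in N-MF and Marco and Siglecf at 0 in M-MF. Lyz2 made up most of these sums (984 FPKM in N-MyoF and 958 in M-MyoF). Taken gene by gene, 6 of 11 tested markers, Csf1r included, fell in M-MyoF, 1 rose and 4 did not pass. Mrc1 was at -1.08, Siglecf at -0.81 and Cd68 at -0.72. Ly6c2 went from 10.4 to 30.4 FPKM, and C1qb was at 8.14 FPKM in N-MyoF and 8.08 in M-MyoF. In M-MF 4 fell and 1 rose. Their part in the Csf1r level was not tested. Sdc1, which encodes the proteoglycan syndecan-1 that binds IL-34, rose from 17.2 to 59.2 FPKM in MF and from 16.3 to 42.1 FPKM in MyoF (log2 fold changes 1.73 and 1.31, limma adjusted p = 4.37e-13 and 5.08e-12). Ptprz1, another IL-34 binding protein, stayed at or below 0.15 FPKM in MF and rose in MyoF from 1.35 to 2.20 FPKM (log2 fold change 0.44, limma adjusted p = 4.75e-06).

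Csf3r, the receptor of G-CSF that marks neutrophils, did not pass in MF, where its ligand rose. It measured 1.43, 1.16 and 1.16 FPKM in N-MF and 1.18, 1.34 and 0.84 FPKM in M-MF, with the groups overlapping (log2 fold change -0.09 ± 0.08, limma adjusted p = 0.29). It measured 3.63, 3.56 and 3.60 FPKM in N-MyoF and 24.82, 25.79 and 24.25 FPKM in M-MyoF, so the metastatic MyoF libraries stood apart (2.50 ± 0.08, limma adjusted p = 5.55e-12). The 2 effects differed by 2.59 (limma adjusted p = 6.05e-10), and the neutrophil markers given above were at their highest sum in the same M-MyoF libraries. Their part in the Csf3r level was not tested. Among the subunits of the GM-CSF receptor, Csf2ra rose by 0.98 in MF and 0.89 in MyoF (limma adjusted p = 2.26e-08 and 5.06e-08). Csf2rb, the shared beta chain, went from 1.62 to 18.5 FPKM in MF and from 3.11 to 15.6 FPKM in MyoF (log2 fold changes 2.90 and 2.01, limma adjusted p = 7.92e-15 and 1.98e-13). Csf2rb2, a second beta chain gene that is not counted here as part of the GM-CSF receptor, rose by 0.73 and 1.06 (limma adjusted p = 3.21e-08 and 6.7e-10). As the 2 beta chain genes are close copies, the split of reads between them is uncertain. Kit, the receptor of stem cell factor, rose by 0.26 in MF, from 2.76 to 3.49 FPKM, and fell by 0.46 in MyoF, from 20.3 to 14.4 FPKM (limma adjusted p = 3.58e-05 and 1.07e-07). The 7 mast cell and basophil markers summed to 0.17 to 0.36 FPKM in N-MF, 4.62 to 5.48 in M-MF, 0.05 to 0.52 in N-MyoF and 30.3 to 32.7 in M-MyoF. The part of these or of other cell types in the Kit level was not tested. Fcer1a was at 0 in both normal groups.

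**Figure D4:**
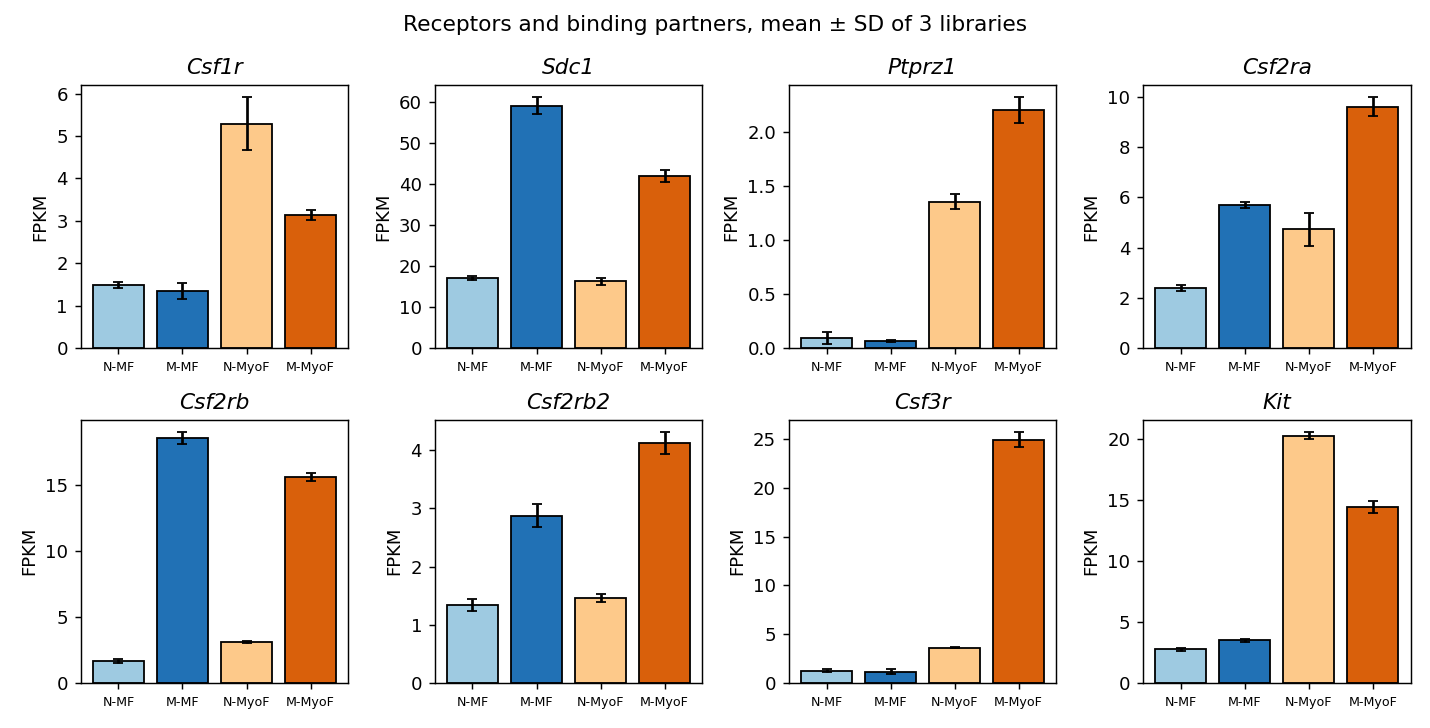
Mean FPKM (vertical axes, linear from 0) with SD of 3 libraries for the 8 tested receptors and binding partners in the 4 groups (horizontal axes). Csf3r is at 25.0 FPKM in M-MyoF and between 1.12 and 3.60 FPKM on average in the other groups, and Csf2rb is highest in M-MF at 18.5 FPKM.

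Other stromal factors for blood cells passed in shares near those of all genes in MF (46.3% higher and 31.8% lower). Of 10 tested genes, 4 rose and 4 fell in M-MF (2 rose with a filter of 5 FPKM, which tests fewer genes), with a median of -0.03, and 7 rose and 3 fell in M-MyoF, with a median of 0.53, where 49.1% and 31.6% of all genes did. Il6, a cytokine that also acts on myeloid cells, fell in both, by 1.49 in MF (limma adjusted p = 3.58e-13) and by 1.73 in MyoF (limma adjusted p = 7.56e-14), so it moved against Csf3. Cxcl12, which holds progenitors and neutrophils in the marrow, rose by 0.75 and 0.68 (limma adjusted p = 1.06e-12 and 2.19e-12). Tslp, a cytokine acting on dendritic cells, rose by 1.36 and 3.09 (limma adjusted p = 3.56e-10 and 9.97e-14). Vcam1, an adhesion molecule of leukocytes, fell by 0.37 in MF and rose by 1.23 in MyoF (limma adjusted p = 1.8e-07 and 9.2e-13). Il3 was not matched in the table, and Il5 and Epo did not pass the filter.

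A further list held 13 tested genes of the cytokine and sensor pathways known to induce Csf2, Csf3 and Csf1 in stromal cells. Of these, 6 rose and 7 fell in M-MF, and 5 rose and 6 fell in M-MyoF, with medians of -0.10 and 0.01. Counted among those that fell is Il1rn, which encodes the IL-1 receptor antagonist and not an inducer (log2 fold changes -0.75 in MF and -0.47 in MyoF). Over all genes 46.3% rose and 31.8% fell in MF, and 49.1% and 31.6% in MyoF, with medians of 0.08 and 0.11. The receptor chains of IL-17, a classical inducer of Csf3, rose in both subgroups. Il17rc rose by 1.10 in MF and 0.71 in MyoF (limma adjusted p = 9.78e-12 and 6.68e-10), and Il17ra by 0.83 and 0.70 (limma adjusted p = 1.9e-11 and 8.5e-11). Il17a itself did not pass the filter. Myd88, the adaptor of IL-1 and Toll-like receptors, fell by 0.69 and 1.03 (limma adjusted p = 9.95e-12 and 1.88e-13). Il1b rose by 1.68 in MyoF, from 21.7 to 71.7 FPKM (limma adjusted p = 1.07e-11), in the libraries where the neutrophil marker sum was highest, and the part of those cells was not tested. In MF it fell by 0.17 (limma adjusted p = 0.0132).

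Of 18 regulators of transcription and mRNA decay that act on these genes, 4 rose and 10 fell in M-MF, and 1 rose and 16 fell in M-MyoF, with medians of -0.13 and -0.66, against 0.08 and 0.11 for all genes, of which 31.8% and 31.6% fell. The number that rose changed with the scaling, from 4 in MF to 2 with equal sums or median-ratio scaling and 0 with quantile normalization, and from 1 in MyoF to 0 with each. Without N-MF replicate 2 it was 2 in MF. Zfp36, whose product tristetraprolin is known to bind AU-rich elements, fell from 2809 to 1773 FPKM in MF and from 5415 to 2890 FPKM in MyoF (log2 fold changes -0.66 and -0.91, limma adjusted p = 5.5e-13 and 2.74e-14). Its relative Zfp36l1 fell by 1.13 in MyoF (limma adjusted p = 8e-14) and was at 223 FPKM in both MF groups (limma adjusted p = 0.957). Fos, a subunit of AP-1, fell by 0.79 and 0.64 (limma adjusted p = 1.78e-14 and 1.1e-13), and Cebpd, a C/EBP factor, by 1.18 and 0.77 (limma adjusted p = 8.77e-13 and 5.18e-11). Arid5a, an RNA-binding protein known to stabilise Il6 mRNA, fell by 0.50 and 1.22 (limma adjusted p = 3.1e-10 and 4.49e-14).

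The membrane forms of CSF1, stem cell factor and FLT3 ligand are cut from the cell surface by proteases. Of 6 genes for these enzymes and their regulators, 3 rose and 3 fell in M-MF, and 4 rose and 2 fell in M-MyoF, counts too small to set against the 46.3% and 49.1% of all genes that rose. Timp3, an inhibitor of the sheddase ADAM17, fell by 1.85 and 0.85 (limma adjusted p = 8.2e-17 and 6.65e-14), from 728 to 201 FPKM in MF and from 488 to 269 FPKM in MyoF. Adam10 rose by 0.98 and 0.61 (limma adjusted p = 1.22e-12 and 1.02e-10). Mmp9, a gelatinase that releases stem cell factor and is abundant in neutrophils, went from 0.63 to 5.85 FPKM in MF and from 1.87 to 72.7 FPKM in MyoF (log2 fold changes 2.07 and 4.68, limma adjusted p = 1.62e-13 and 1.37e-16), beside the neutrophil marker sums given above, whose part was not tested.

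Genes downstream of the growth factor receptors and of myeloid fate passed in shares near the background in MF, with 8 of 15 tested genes higher and 4 lower in M-MF (5 higher after quantile normalization), where 46.3% and 31.8% of all genes were. In M-MyoF 7 were higher and 7 lower, where 49.1% and 31.6% of all genes were. Ptpn6, the phosphatase SHP-1 of blood cells, rose by 1.32 and 2.15 (limma adjusted p = 4.46e-10 and 2.78e-12). Cish, a feedback inhibitor induced by STAT5, rose by 1.05 in MF and fell by 0.19 in MyoF (limma adjusted p = 9.03e-13 and 1.93e-05). Stat3, which carries the G-CSF signal, rose by 0.31 in MF and fell by 0.75 in MyoF (limma adjusted p = 1.83e-09 and 2.4e-13).

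For each growth factor, the genes most like it over the 12 libraries were taken by Pearson correlation of log2(FPKM + 1) among 9584 candidates. The libraries fall into 4 tight groups, so each correlation mainly describes 4 levels, and no test was made. Csf3 was most like H2-K1, a class I histocompatibility gene (r = 0.9997), Apol9a (0.9993) and Cxcl9, an interferon-gamma induced chemokine (0.9991). Cxcl9 was at 0.23 and 0.22 FPKM on average in N-MF and N-MyoF, and at 10.7 and 12.6 FPKM in M-MF and M-MyoF. H2-K1 has close copies in its gene family, so its counts are uncertain. Csf1 was most like Ly6a (0.9977), which encodes the surface protein Sca-1, Ptn, a heparin-binding growth factor (0.9973), and Sfrp1, a Wnt antagonist (0.9965). Il34 was most like Serpine2 (0.9948), Cd82 (0.9945) and Rbm3 (0.9936), and Kitl most like Fgfr2, a fibroblast growth factor receptor (0.9992), Tinagl1 (0.9984) and Trp53i11 (0.9983). Flt3l was most like Pthlh, the parathyroid hormone-like hormone gene (0.9945), which fell from 31.7 FPKM in N-MF to 7.0 in M-MF, and like Nav1 (0.9943) and Pdlim2 (0.9935). Csf2 had lower values, with Prr3 (0.9497) and Glmp (0.9162) named here.

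By RefSeq on GRCm38, Csf1 lies at chr3:107741048-107760469 (minus strand), Csf2 at chr11:54247270-54249899 (minus) and Csf3 at chr11:98700183-98703631 (plus). Il34 lies at chr8:110741829-110805949 (minus), Kitl at chr10:100015615-100100416 (plus) and Flt3l at chr7:45131183-45136490 (minus). Long noncoding gene models overlap Csf1, Csf2, Csf3 and Il34, on the opposite strand in the case of Gm12223 at Csf2 and of Gm15894 and Gm15895 at Il34. Since no source used here says whether the counting used the strand, reads from these models cannot be told apart from those of the growth factors.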

How the data were processed

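The deposited values are FPKM per gene and library, computed by the authors and given to 2 decimals per the file headers and values. Per the submitters' processing notes the build was GRCm38. The sources used here name no aligner, counter or annotation. Per the labels' protocols, polyA RNA was extracted with Trizol, reverse transcribed and amplified with a SMART-seq2 type method, and made into libraries with a transposon. The table has 0 columns of no listed sample. As FPKM hold no depth, precision rests on the 3 libraries per group.

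Groups were taken from sample titles. Values were tested as log2(FPKM + 1) with limma 3.58.1 in R 4.3.3, in 1 model of 4 group means over 12 libraries with a mean-variance trend. The filter was at least 1 FPKM in at least 3 samples, which left 13300 genes. P-values were adjusted by Benjamini-Hochberg over all of them, with a threshold of 0.05. The model gave 5 contrasts. Ratios within libraries were compared with exact permutation tests. The 6 members, 6 pathway lists and 12 cell type lists were chosen with earlier results of these data known. Besides the members and the receptors, each pathway list contributed up to 3 passing genes with the smallest p per metastasis comparison, and likeness was searched among tested genes with a mean of at least 5 FPKM in a group, the 3 highest correlations being taken. Single values of some genes these rules name are not reported here.

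No label says what the library numbers mark. Over 1830 genes at a mean of 50 FPKM or more, deviations from the group means correlated at 0.482 to 0.796 in 18 pairs with the same number and at -0.683 to 0.38 in 36 pairs with different numbers, so a fit with the number as a block stood beside the main one, which has no block. Alternatives covered the pseudocount, the filter, 3 scalings, the samples fitted, a replicate block, library weights, the trend and each library left out. On simulated M-MF against N-MF data with 12611 genes, 91% of genes changed by 1 log2 unit and 97% of those changed by 2 were recovered. The simulation changed 200 genes with noise independent between libraries, whereas 78.1% of genes passed in the data. These rates therefore cannot be carried over to the main fit. Sequences came from RefSeq (GRCm38.p6) and GENCODE, read with Python 3.11.15 and pandas 2.3.3. Figures were drawn with matplotlib 3.10.9.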

Additional observations from a re-analysis of the deposited data

Results flagged for a closer look

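Each of these results stands here because the metastasis effect in MyoF differed from that in MF by the test of the difference itself (limma, adjusted over all 13300 genes, of which 64.4% passed). Values are the MyoF effect minus the MF effect in log2 units. Among the growth factors the difference was 0.77 for Csf1, 0.36 for Csf3, -0.90 for Il34, -0.58 for Kitl and 1.27 for Flt3l. The Csf3 value rests on normal levels below the filter and is not read as a difference between the subgroups. With a pseudocount of 0.1 it was 0.067 (limma adjusted p = 0.625). The largest in size was that of Flt3l, which fell in MF and did not pass in MyoF.

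Among receptors and binding partners it was 2.59 for Csf3r, -0.88 for Csf2rb, -0.72 for Kit, -0.51 for Csf1r, 0.47 for Ptprz1, -0.41 for Sdc1 and 0.33 for Csf2rb2. Csf3r differed most in this list, and Kit rose in MF and fell in MyoF.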

How the results depend on the processing

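The number of growth factors called was 5 in MF (4 to 6 over the alternatives), 4 in MyoF (3 to 5) and 5 for the difference of effects (4 to 5). Between subgroups it was 6 in normal and in metastatic lung (5 to 6 each). These counts include Csf3, whose normal values lay below the filter, and between subgroups also Csf2, which passed the filter only through MF libraries. Over all genes 78.1%, 80.7%, 64.4%, 82.0% and 85.1% were called in the same order, so these counts do not set the 6 apart. Among the gene values followed through the alternatives, the replicate block changed 1 call, Csf2 in MF (0.23, limma adjusted p = 0.0236), and no other. Some reported values, such as those of most cell type markers, were not followed through the alternatives. Of the values of named genes under settings that keep all libraries or drop the libraries numbered 3, 959 kept direction and side, 9 changed direction, 6 were lost and 6 gained. Csf1 in MF was -0.020 with median-ratio scaling and -0.12 with quantile normalization. Flt3l in MyoF was -0.071 with equal sums, -0.040 with median-ratio scaling and -0.094 with quantile normalization, Csf2 in MyoF -0.19 under quantile normalization, and Csf3 in N-MF against N-MyoF 0.16. The difference of effects was 0.028 for Csf2 without the libraries numbered 3, and for Csf2ra 0.056 with a pseudocount of 5. With each library left out in turn, Csf2ra ran from -0.14 to 0.0066 (without N-MyoF replicate 3), Csf3r in MF from -0.17 to 0.0077 (without M-MF replicate 3) and Ptprz1 in MF from -0.063 to 0.0093 (without N-MF replicate 1). The cause of these changes was not tested. The higher share of calls over all genes was 59.3% in MF as deposited, and 47.8% and 40.4% with median-ratio scaling and quantile normalization. In MyoF it was 60.8%, against 45.3%, 48.2% and 41.1% with equal sums and these 2 scalings. Between subgroups it went from 29.8% to 53.8% and 52.1% in normal lung, and from 22.4% to 48.8% and 47.3% in metastatic lung. For the difference of effects it was 59.0%, and 47.3% with equal sums. A filter of 5 FPKM removed Csf2. Csf1r in MF passed with median-ratio scaling (-0.18) and quantile normalization (-0.29), and Csf3r (-0.29) and Ptprz1 (-0.17) in MF with quantile normalization. Values under about 1 FPKM, which include Csf2 and normal Csf3, have few significant digits and limit what can be seen.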

Other observations

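The place of the growth factors among all 20606 genes of the table shifted with the subgroup. Csf1 ranked at the 95.2 percentile of mean FPKM in N-MF and at 81.7 in N-MyoF. Csf3 went from the 36.1 to the 89.6 percentile in MF and from 34.6 to 92.0 in MyoF. Flt3l went from 87.7 to 74.6 in MF and stood at 65.5 and 64.3 in N-MyoF and M-MyoF. Csf2 stayed between the 34.2 and the 43.5 percentile in all 4 groups.

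Csf2 was lowest in the library numbered 3 in N-MF (0.57 FPKM), N-MyoF (0.42 FPKM) and M-MyoF (0.38 FPKM), and in M-MF it was lowest in the library numbered 1 (1.06 FPKM). The difference of effects for Csf2 had a value of -0.15 with all libraries and 0.028 without those numbered 3, neither past the threshold.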
